A study of Mus musculus with 6 samples.

Results

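The respiratory chain genes described here are the 101 of 12968 genes in the deposited table whose symbols name a gene of the mitochondrial genome, a subunit or named assembly factor of complexes I to V, or cytochrome c. They were chosen by symbol alone, from the prefixes mt-, Nduf, Uqcr, Cox4 to Cox8 and Atp5, the 4 Sdh genes and Cycs. Of these, 15 are encoded in the mitochondrial genome (13 mRNAs and the ribosomal RNAs mt-Rnr1 and mt-Rnr2) and 86 in the nucleus. All 15 mitochondrial genes and 85 nuclear members were tested. Atp5k-ps2, a pseudogene, had a mean under 10 and was not tested; it stood at 4.71, 3.11 and 4.66 scaled reads in the MCAO libraries and 7.19, 12.4 and 12.1 in the control libraries. Cox4i2, Cox6a2, Cox6b2, Cox7a1, Cox8b and Ndufa4l2 were not analysed here.

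The study sequenced polyA RNA from the left brain hemisphere (middle section) of mice, after RiboTag precipitation. RiboTag marks the ribosomal protein Rpl22 with an epitope wherever Cre recombinase is active, which lets an antibody precipitate the ribosomes of those cells with their RNA. In the MCAO group, 3 animals underwent occlusion of the middle cerebral artery for 1 h. In the control group, 3 animals had no occlusion, and no sham operation is described. All 6 were killed after 3 days, and each library is 1 animal. The series title names the astrocyte transcriptome, but the driver of Cre, the strain, the sex and the age are absent from the labels used here. RNA of each animal was precipitated 2 times and pooled, and 2 technical replicates per animal are 1 column in the table. Values are read counts scaled by a factor of the library, called scaled reads.

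The respiratory chain passes electrons from NADH through complex I, or from succinate through complex II, to ubiquinone, and then through complex III, cytochrome c and complex IV to oxygen. Complexes I, III and IV pump protons across the inner mitochondrial membrane, and complex V, the ATP synthase, uses their return to make ATP. Complex II is wholly nuclear encoded; each of the others joins subunits of both genomes. Mitochondrial mRNAs are transcribed as long precursors from mitochondrial DNA, carry short polyA tails and are translated by mitochondrial ribosomes, which do not contain Rpl22, whereas nuclear mRNAs of the chain are translated by cytosolic ribosomes. In a bulk library, more cells of a type, more RNA per cell and RNA carried along in the precipitate cannot be told apart.

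The promoters of nuclear members are shown first, since many genes of the chain share motifs there. NRF1 and the ETS-family factor GABPA are textbook regulators of respiratory genes. RefSeq windows of 300 bases on GRCm38.p6 (250 before and 50 after the start) were matched for 73 members. The palindromic NRF1 motif, whose letters are the longer runs of capitals in the lines that follow, was searched on both strands, as all motifs were, with the fifth base or, on the other strand, the sixth base free. It was in 19 of them (26%) and in 5.19% of 27025 genes with a window. The ETS core CCGGAAG was in 23.3% of the members against 9.93% of genes. The YY1 motif was in 6.85% against 0.755%, and TATAAA in 6.85% against 15.7%. Of the 8 called members with a window, Cox6a1 had the NRF1 motif, while Atp5e, Atp5l, Cox6a1 and Uqcr11 had the ETS core. A match here is a run of letters in the window, not a measured binding site. The 150 bases before the start are printed for 3 members that rose (Cox6a1, Atp5e, Uqcr11) and 2 that were not called (Sdha, Atp5g2), with NRF1 or ETS core matches in capitals, and were chosen after their values were seen.
Cox6a1, chr5:115348959-115349108, minus strand: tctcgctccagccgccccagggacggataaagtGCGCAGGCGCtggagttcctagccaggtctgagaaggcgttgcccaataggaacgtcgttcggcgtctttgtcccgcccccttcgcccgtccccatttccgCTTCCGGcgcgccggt
Atp5e, chr2:174464102-174464251, minus strand: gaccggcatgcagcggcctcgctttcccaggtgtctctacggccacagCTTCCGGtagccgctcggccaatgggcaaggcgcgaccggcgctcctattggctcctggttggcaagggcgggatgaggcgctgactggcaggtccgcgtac
Uqcr11, chr10:80406822-80406971, minus strand: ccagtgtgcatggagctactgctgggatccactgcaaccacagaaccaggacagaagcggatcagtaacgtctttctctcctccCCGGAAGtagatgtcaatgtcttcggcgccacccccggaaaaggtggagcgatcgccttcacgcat
Sdha, chr13:74350241-74350390, minus strand: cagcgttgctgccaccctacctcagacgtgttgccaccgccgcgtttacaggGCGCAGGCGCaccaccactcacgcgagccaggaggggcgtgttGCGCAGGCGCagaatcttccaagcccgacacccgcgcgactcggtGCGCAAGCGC
Atp5g2, chr15:102671048-102671197, minus strand: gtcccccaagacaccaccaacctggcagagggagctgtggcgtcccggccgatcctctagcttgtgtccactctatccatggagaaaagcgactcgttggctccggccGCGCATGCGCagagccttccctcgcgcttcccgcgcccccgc
Sdha, whose level did not pass the test, holds 3 NRF1 motif matches in this stretch, Atp5e and Uqcr11 hold an ETS core match, Cox6a1 has both kinds, and Atp5g2 has an NRF1 match.

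Recovered reads numbered 4567615, 882263 and 4027185 in MCAO 1, 2 and 3, and 9519548, 1538901 and 1816934 in control 1, 2 and 3. The 3 reads that a count of 0 allows equal 9.33 scaled reads in MCAO 2, the shallowest library, and 0.863 in control 1, the deepest. Neuronal markers were present next to astrocyte markers in all libraries, with summed levels over 15 genes each of 32478 to 37596 and 44713 to 59388 scaled reads in MCAO libraries and 34238 to 40614 and 48129 to 80688 in control libraries. In the limma fit 2.3% of all genes tested were called higher and 0.789% lower. A short marker list with 0 calls is therefore not read as unchanged. Of 15 microglial markers 10 rose, with a median log2 change of 1.91. Their summed levels were 2482 to 3389 scaled reads in MCAO libraries and 683 to 944 in control libraries. Of 12 oligodendrocyte markers 7 rose (median 0.79; sums of 12684 to 16111 in MCAO and 8483 to 9652 in control libraries), 0 of 15 neuronal and 0 of 15 astrocyte markers were called in the limma fit (1 and 3 at an unadjusted p under 0.05, all lower), 0 of 4 tested endothelial markers were called (0 at an unadjusted p under 0.05), and of 4 erythroid genes Hba-a1 rose (1.75, SE 0.34; sums of 360 to 577 in MCAO and 226 to 342 in control libraries). The endothelial markers Kdr, Tek, Cdh5 and Ly6c1 and the erythroid marker Alas2 have no row in the table used here, in which every gene reaches at least 10.6 scaled reads in some library; they were not analysed here. The part of these shifts in the results below was not tested.

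Control 1 departs from the other libraries in several mitochondrial genes and in 6 gene models. It holds almost no reads of gene models that have many in the other 5 libraries: Gm10222, Gm10925, Gm28437, Gm28438, Gm28661 and Gm29216. They came from a search of the whole table for genes in which control 1 lay more than 8 times under every other library, which found 7 genes, the other being Gm42420, whose lowest value elsewhere is not over 10; the opposite search found 0. The search was made after the values were seen. RefSeq places Gm10925 (chromosome 1, 24613971 to 24614651, GRCm38.p6) on a stretch of 681 bases and lists mt-Atp6 among its synonyms, and mt-Atp6 is 681 bases too. Gm10222 (chromosome 1, 24612404 to 24612700) has 297 bases, the length of mt-Nd4l. Their starts lie 1567 bases apart on chromosome 1, and the matching ends of mt-Atp6 and mt-Nd4l lie 1566 bases apart on the mitochondrial genome, where mt-Co3 and mt-Nd3 stand between them. The other 4 models have no annotation in the reference used here, so no gene is assigned to them. Reads that match a mitochondrial gene and a nuclear copy can be counted at either, so values of mt-Atp6, mt-Co3, mt-Nd3 and mt-Nd4l, taken alone, are uncertain in any library. mt-Co2, which lies outside that stretch, was also higher in control 1 than in the other controls, so its value taken alone is uncertain as well. Whether the other 4 models share reads with mt-Co2 or with other mitochondrial genes was not tested.

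**Figure D1:**
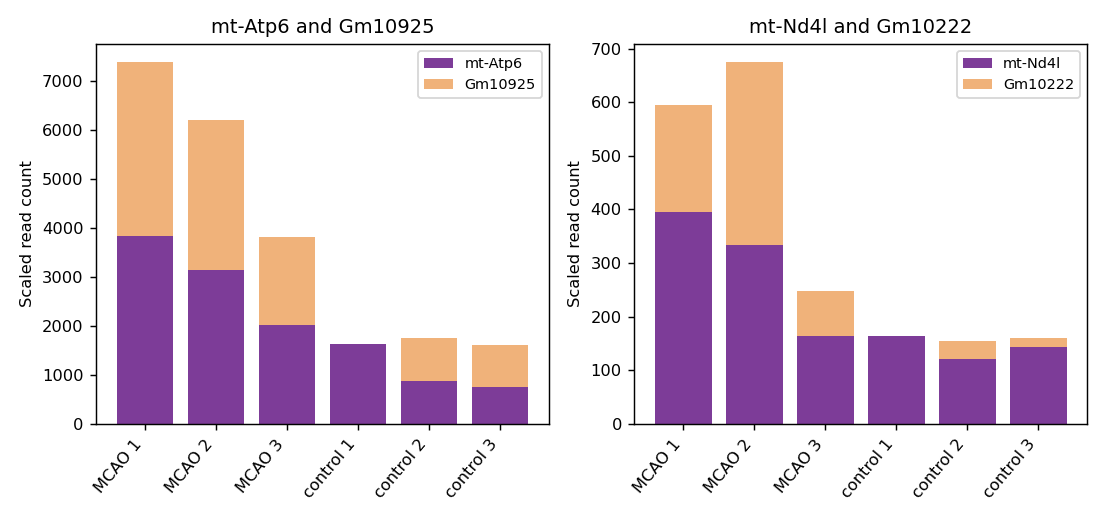
Scaled read counts of mt-Atp6 with Gm10925 (left) and mt-Nd4l with Gm10222 (right), stacked, in each of 3 MCAO and 3 control libraries; bars start at 0 and a value at the floor of 1 is drawn as 0. The gene model is absent from the control 1 bar or nearly so, at 1.44 scaled reads for Gm10925, while the stacked totals of the controls are close to each other.

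Gm10925 stood at 3545, 3048 and 1792 scaled reads in MCAO 1, 2 and 3, and at 1.44 (5 reads), 885.2 and 846.6 in control 1, 2 and 3. mt-Atp6 stood at 3838, 3148 and 2025 scaled reads in the MCAO libraries and at 1619, 874.6 and 754.5 in the controls, so that control 1, lowest in Gm10925, was the highest control. Added together, the pair stood at 7383, 6196 and 3817 in the MCAO libraries and at 1621, 1760 and 1601 in the controls. The controls thus lie close together in the sum and apart in its parts, and the MCAO libraries lie above all of them in both. For mt-Nd4l plus Gm10222 the sums were 594, 675 and 248 in the MCAO libraries and 163, 154 and 160.0 in the controls. All 13 mitochondrial mRNAs plus the 6 gene models summed to 77944, 82702 and 37983 scaled reads in MCAO libraries, against 22821, 23125 and 23935 in control libraries. The 5 genes mt-Nd1, mt-Nd2, mt-Cytb, mt-Nd5 and mt-Nd6, which lie outside the stretch between mt-Atp6 and mt-Nd4l, summed to 21127, 20002 and 9792 in MCAO libraries and 5627, 5639 and 5780 in controls. Other genes outside it, such as mt-Co1 and mt-Co2, were not in this sum, and their controls lie further apart. In control 1, 2 and 3, mt-Co1 stood at 8672, 7413 and 8164 and mt-Co2 at 2364, 1070 and 1099.

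Most mitochondrially encoded genes rose. Of 15 tested, 12 were called higher in MCAO (limma, Benjamini-Hochberg adjusted p under 0.05), 0 lower, and all 15 had an unadjusted p under 0.05, in a fit in which 2.3% of the 12549 genes tested were called higher, 0.789% lower (3.08% in all) and 10.1% were higher at an unadjusted p under 0.05. The log2 change ran over 0.96 to 3.36 with a median of 1.50, while the median of all genes tested was -0.01. In 13 of 15 the 3 MCAO libraries lay above all 3 controls, as in 12.4% of all genes tested. The exceptions were mt-Co2 and mt-Co3, in each of which MCAO 3 lay below control 1. The 13 mRNAs made up 2.31%, 2.31% and 1.12% of the scaled reads of MCAO 1, 2 and 3, and 0.833%, 0.679% and 0.703% of those of control 1, 2 and 3. MCAO 3 was the lowest MCAO library in every mitochondrial gene: its median log2 difference from the control mean over the 13 mRNAs was 0.78, against 1.91 in MCAO 1 and 1.66 in MCAO 2, and the median log2 change of the 13 mRNAs was 1.19 without MCAO 1 and 1.76 without MCAO 3. Without control 1 it was 1.58, with 12 of 15 genes called. By edgeR on the recovered reads all 15 were called higher, beside 3.06% of genes tested. With no intensity trend in the moderation of the variance, 2 of the 15 were called, and the span trend setting below left 8.

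**Figure D2:**
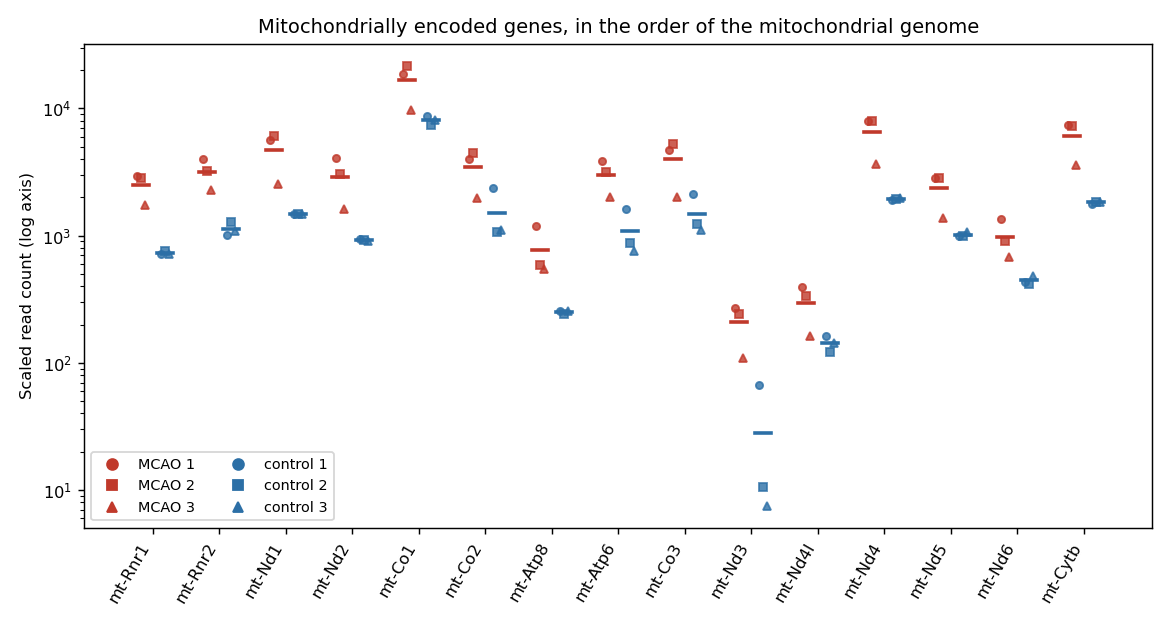
Scaled read counts of the 15 mitochondrially encoded genes on a log axis, in the order of the mitochondrial genome, with MCAO libraries (red) left of control libraries (blue); marks are libraries and the short lines are group means. MCAO 3 lies lowest among the MCAO libraries, and control 1 lies above the other controls in mt-Co2, mt-Atp6, mt-Co3 and mt-Nd3.

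Both ribosomal RNAs of the mitochondrial ribosome rose. mt-Rnr1, its small-subunit RNA (MT, 70 to 1024), stood at 2942, 2849 and 1745 scaled reads in MCAO libraries and 719.8, 755.7 and 712.3 in controls, with a log2 change of 1.74 (SE 0.19, adjusted p = 0.000119). mt-Rnr2, the large-subunit RNA (MT, 1094 to 2675), stood at 4015, 3238 and 2273 in MCAO libraries and 1012, 1268 and 1091 in controls (1.47, SE 0.20, adjusted p = 0.000764). In both, every MCAO library lay above every control, and these 2 genes were called under each of the 19 other settings tried.

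Of the 7 mitochondrial subunits of complex I, which form its proton-pumping membrane arm, 6 rose and mt-Nd4l was not called, with a median of 1.55. mt-Nd1 (MT, 2751 to 3707) stood at 5595, 6009 and 2541 scaled reads in MCAO libraries and 1486, 1469 and 1479 in control libraries, a log2 change of 1.57 (SE 0.26, adjusted p = 0.00368). The groups do not overlap, and the coefficient of variation of its controls is 0.58%, beside a counting error of 3.48% in control 2 and 3.19% in control 3. mt-Nd4 (MT, 10167 to 11544) stood at 7931, 7987 and 3625 in MCAO libraries and 1915, 1927 and 1966 in control libraries (1.66, SE 0.25, adjusted p = 0.00219). mt-Nd2 (MT, 3914 to 4951) changed by 1.55 (SE 0.25, adjusted p = 0.00304), mt-Nd5 (MT, 11742 to 13565) by 1.14 (SE 0.23, adjusted p = 0.0159) and mt-Nd6 (MT, 13552 to 14070), which alone among the mRNAs lies on the opposite strand of the mitochondrial genome, by 1.08 (SE 0.20, adjusted p = 0.0103). mt-Nd5 was lost without MCAO 1 (adjusted p = 0.0576), without MCAO 2 (0.0699) and without control 1 (0.0515). mt-Nd5 and mt-Nd6 overlap by 14 bases and mt-Nd4l and mt-Nd4 by 7, and no strand setting for the counting is given in the sources used here.

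The most variable controls were those of mt-Nd3. mt-Nd3 (MT, 9459 to 9806) stood at 271, 243 and 109 scaled reads in MCAO libraries and 66.8, 10.6 and 7.55 in controls, with 6 and 5 reads in control 2 and control 3. Its log2 change of 3.36 (SE 0.58, adjusted p = 0.00592) became 4.28 (adjusted p = 1.26e-05) without control 1, and it was not called without the intensity trend (adjusted p = 0.121), with robust moderation (0.161) or by DESeq2 on recovered reads (0.0745). Every MCAO value lies above every control value, but the size of the change depends on the few reads of control 2 and control 3. mt-Nd4l (MT, 9877 to 10173) stood at 396, 333 and 164 in MCAO libraries and 163, 121 and 143 in controls. It was not called (0.97, SE 0.26, adjusted p = 0.0612), its groups do not overlap, and with Gm10222 added it was called (1.54, adjusted p = 0.00759). With the span trend removed its change was 0.34 (adjusted p = 0.468), with library weights 0.65 (0.089), and with 1 library left out 0.72 (without MCAO 1) to 1.36 (without MCAO 3).

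In complex III the mitochondrial subunit is cytochrome b, which holds the heme groups that take electrons from ubiquinol. mt-Cytb (MT, 14145 to 15288) stood at 7338, 7197 and 3563 scaled reads in MCAO libraries and 1782, 1840 and 1836 in controls, a log2 change of 1.65 (SE 0.24, adjusted p = 0.00139), with all MCAO libraries above the controls. In complex IV, mt-Co1, mt-Co2 and mt-Co3 form the catalytic core. mt-Co1 (MT, 5328 to 6872) had 18604, 21504 and 9714 in MCAO libraries and 8672, 7413 and 8164 in controls, a change of 0.96 (SE 0.28, adjusted p = 0.0805), not called but with groups that do not overlap. mt-Co2 (MT, 7013 to 7696) had 4009, 4451 and 1968 in MCAO libraries and 2364, 1070 and 1099 in controls (1.22, SE 0.32, adjusted p = 0.0516), and over the libraries left out it ran from 1.00 without MCAO 2 (adjusted p = 0.184) to 1.59 without control 1 (adjusted p = 0.00785) and without MCAO 3 (0.0162). With library weights it was 0.61 (adjusted p = 0.201) and with the span trend removed 0.72 (0.214). mt-Co3 (MT, 8607 to 9390) had 4669, 5228 and 2007 in MCAO libraries and 2138, 1229 and 1097 in controls, and its change of 1.36 (SE 0.32, adjusted p = 0.0337) was lost in 10 of 19 settings. Control 1, which almost lacks reads of the 6 gene models, was the highest control in all 3. Without control 1, mt-Co1 changed by 1.01 (adjusted p = 0.163) and mt-Co3 by 1.66 (adjusted p = 0.0131), and mt-Co2 was called as given above. With all 6 libraries, complex IV has 1 of 3 mitochondrial genes called, against 6 of 7 in complex I. The difference between complexes, and the part of control 1 in it, were not tested.

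In complex V, mt-Atp6 and mt-Atp8 encode membrane subunits of the Fo part, and overlap by 43 bases. mt-Atp8 (MT, 7766 to 7969) stood at 1197, 584.7 and 541.5 scaled reads in MCAO libraries and 255, 243 and 255 in controls, a log2 change of 1.52 (SE 0.24, adjusted p = 0.00233). mt-Atp6 (MT, 7927 to 8607) changed by 1.50 (SE 0.27, adjusted p = 0.00716), by 1.84 (adjusted p = 0.00088) without control 1 and by 1.75 (adjusted p = 0.000366) with Gm10925 added; it was not called with no intensity trend (0.129). Per kilobase of gene, mt-Co1 was the highest of the 15 in both groups (10749 ± 3977 scaled reads per kb in MCAO and 5232 ± 410 in control libraries, SD, n = 3 each), and mt-Nd3 the lowest (597 ± 248 and 81.4 ± 95.8). The rank of mt-Nd3 is uncertain, since its reads can be counted at a nuclear copy, as given above. It stood at 192, 30.6 and 21.7 per kb in control 1, 2 and 3. The Rpl22 gene, whose protein carries the tag, stood at 251 ± 52.1 scaled reads in MCAO and 197 ± 32.8 in control libraries (SD, n = 3 each; adjusted p = 0.33).

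The nuclear members had smaller log2 changes than the mitochondrial genes, a difference given here as values without a test. Of 85 tested, 9 (10.6%) were called higher and 0 lower, 46 had an unadjusted p under 0.05 (all of them higher), and 78 changed upward, beside 2.3% of all genes called higher, 10.1% with an unadjusted p under 0.05 and higher, and 48.7% positive. The median log2 change was 0.42, between -0.33 and 1.00, so that the range of the nuclear members and that of the mitochondrial genes overlapped only at their ends. In 53 of 85 (62.4%) the MCAO libraries lay above all controls, against 12.4% of all genes, and in 1 of them below, against 12.5%. The 9 that rose were Ndufa3 of complex I, Uqcr11 and Uqcrq of complex III, Cox5a, Cox6a1 and Cox7c of complex IV, and Atp5e, Atp5j2 and Atp5l of complex V. Most of these calls were lost with 1 library left out. Of 85, 0 were called without MCAO 2, without MCAO 3 or without control 2. Without MCAO 1, without control 1 or without control 3, 4 were called. Calls over all genes fell as well, from 387 to between 148 (without MCAO 3) and 306 (without control 2). The median log2 change of the nuclear members stayed at 0.32 to 0.47 over the libraries left out. Without both control 2 and MCAO 2, the shallowest of each group, 1 was called (Cox5a) and the median was 0.25, a setting chosen after seeing the data. Calls over all genes did not fall in that setting: they numbered 567, against 387 with all 6 libraries.

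**Figure D3:**
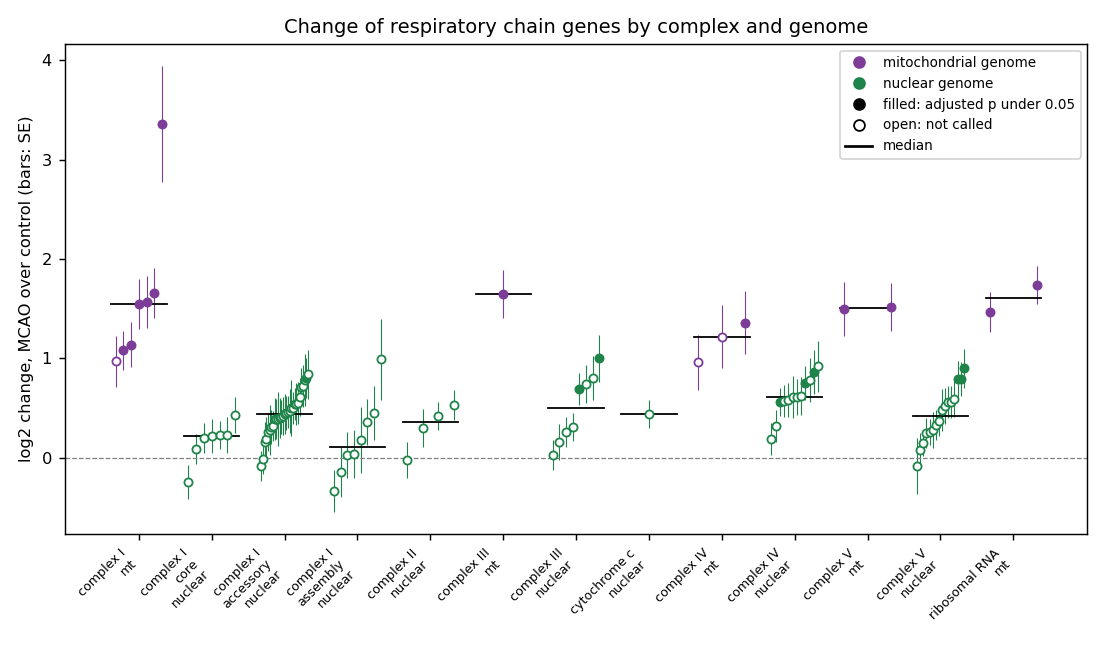
Log2 change, MCAO over control, of each tested member with its SE, by complex and genome; purple marks are mitochondrially encoded, green marks nuclear, filled marks are called at an adjusted p under 0.05 and the black line is the group median. The mitochondrial genes lie at 0.96 to 3.36 and the nuclear ones at -0.33 to 1.00.

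Complex I takes electrons from NADH. Of its 36 nuclear subunits 1 was called higher, near the share of 2.3% of all genes tested, with a median of 0.40. At an unadjusted p under 0.05, 18 were higher, 17 of them accessory subunits, against 10.1% of all genes tested. In 19 of the 36 the MCAO libraries lay above all controls, against 12.4% of all genes. The 7 core subunits, which carry the flavin and iron-sulphur clusters, had a median of 0.22 and 0 calls (1 at an unadjusted p under 0.05). Ndufv1, which binds NADH, changed by 0.23 (SE 0.18, adjusted p = 0.514) and the iron-sulphur subunit Ndufs8 by 0.43 (SE 0.18, adjusted p = 0.201). Ndufs1, which carries several iron-sulphur clusters, stood at 403, 525.6 and 565.5 scaled reads in MCAO libraries and 536.7, 718.4 and 510.1 in controls, and the groups overlap (-0.24, SE 0.17, adjusted p = 0.485). The 29 accessory subunits had a median of 0.44 and 1 call, Ndufa3 (chromosome 7, 3617347 to 3620165), a small membrane-arm protein, at 162.4, 199.1 and 137.2 in MCAO libraries and 99.0, 76.3 and 109 in controls (0.80, SE 0.20, adjusted p = 0.0462). Ndufs6, an accessory subunit that binds zinc, changed by 0.84 without a call (SE 0.25, adjusted p = 0.0852), while Ndufa9 and Ndufa10, the most abundant accessory subunits, were at -0.08 and -0.01. Of 8 assembly factors 0 were called (1 at an unadjusted p under 0.05; median 0.11). Ndufaf4 was at -0.33, Ndufaf5 at 0.36, Ndufaf7 at -0.14 and Atp5sl, which is named for the synthase but acts in complex I assembly, at 0.03.

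Complex II oxidises succinate and has no mitochondrially encoded subunit; 0 of its 4 genes were called (2 at an unadjusted p under 0.05), with a median of 0.36. Sdha, the flavoprotein (chromosome 13, 74322255 to 74350240), stood at 1331, 1658 and 1681 scaled reads in MCAO libraries and 1529, 1990 and 1275 in controls, so the groups overlap (-0.02, SE 0.18, adjusted p = 0.965). Sdhb, the iron-sulphur subunit, stood at 370.6, 472.8 and 452.2 in MCAO libraries against 315.1, 267.9 and 307.8 in controls (0.53, SE 0.15, adjusted p = 0.0755). The membrane anchors Sdhc and Sdhd changed by 0.42 (adjusted p = 0.117) and 0.30 (adjusted p = 0.406). Sdhb and Sdhc do not overlap between the groups, and Sdha and Sdhd do.

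Complex III passes electrons from ubiquinol to cytochrome c, and 2 of its 8 nuclear subunits rose, with a median of 0.50. Higher at an unadjusted p under 0.05 were 4 of the 8. The shares over all genes tested were 2.3% called higher and 10.1% higher at an unadjusted p under 0.05. Uqcrq (chromosome 11, 53427922 to 53430831), a small subunit, stood at 203, 339 and 241 scaled reads in MCAO libraries and 164.3, 86.9 and 144.9 in controls, a log2 change of 1.00 (SE 0.24, adjusted p = 0.0394). Uqcr11 (chromosome 10, 80402997 to 80406821), another small subunit, stood at 212, 255 and 215 in MCAO libraries and 148, 137 and 136 in controls (0.69, SE 0.16, adjusted p = 0.0321). In both, the groups do not overlap. Uqcrb changed by 0.80 (SE 0.22, adjusted p = 0.0633), and the core proteins Uqcrc1 and Uqcrc2 by 0.16 and 0.03. Cycs (chromosome 6, 50562563 to 50566569), cytochrome c, the mobile carrier to complex IV, stood at 400.6, 435.4 and 403 in MCAO libraries and 319.7, 269.6 and 322.9 in controls, above in every MCAO library but not called (0.44, SE 0.14, adjusted p = 0.113).

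Complex IV reduces oxygen to water. Of its 12 nuclear genes 3 were called higher, beside 2.3% of all genes tested. At an unadjusted p under 0.05, 10 were higher, beside 10.1% of all genes tested. The median of 0.61 was the highest of the nuclear groups. Cox6a1 (chromosome 5, 115345652 to 115348958), the isoform expressed outside heart and muscle, stood at 619.5, 752.7 and 582.1 scaled reads in MCAO libraries and 439.2, 305.1 and 427.1 in controls, a log2 change of 0.75 (SE 0.17, adjusted p = 0.0303). Cox5a (chromosome 9, 57517328 to 57532427) stood at 388, 389 and 355 in MCAO libraries and 263, 268 and 238 in controls (0.56, SE 0.14, adjusted p = 0.0491). Cox7c (chromosome 13, 86044798 to 86046795) stood at 230.0, 339 and 227 in MCAO libraries and 159, 103 and 178 in controls (0.86, SE 0.22, adjusted p = 0.0488). The groups do not overlap in these 3, and MCAO 2 is the highest library in each, if only just in Cox5a. Cox5b, not called, changed by 0.92 (SE 0.26, adjusted p = 0.0755), with 145.5 in control 2 against 314.6 and 310.9 in the other controls. Cox7a2 (0.78), Cox8a (0.62), Ndufa4 (0.58, first assigned to complex I and now placed in complex IV), Cox6b1 (0.57), Cox4i1 (0.32) and Cox7a2l (0.19, a factor for supercomplexes) were not called, at adjusted p of 0.0634 to 0.54.

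In complex V, the F1 head makes ATP and the Fo part and stalks carry the protons and couple them to it. Of 16 nuclear genes 3 were called higher, beside 2.3% of all genes tested, with a median of 0.42. Higher at an unadjusted p under 0.05 were 10 of the 16, beside 10.1% of all genes tested. Of the 5 F1 genes (median 0.28) the epsilon subunit gene Atp5e rose (chromosome 2, 174461075 to 174464101), at 188, 227 and 168 scaled reads in MCAO libraries and 127, 106 and 101 in controls (0.79, SE 0.18, adjusted p = 0.03). The catalytic beta subunit gene Atp5b stood at 5118, 5231 and 6033 in MCAO libraries and 4231, 5286 and 4053 in controls (0.28, SE 0.18, adjusted p = 0.435), and Atp5a1 (alpha) at 0.08, without a call and with groups that overlap in both. Of the 11 other genes, in the membrane part and stalks (median 0.48), Atp5j2 and Atp5l, which encode small membrane subunits, rose. Atp5j2 (chromosome 5, 145183704 to 145191541) stood at 224, 289 and 231 in MCAO libraries and 162, 99.3 and 142 in controls (0.90, SE 0.20, adjusted p = 0.025). Atp5l (chromosome 9, 44913248 to 44920742) stood at 255, 336 and 286 in MCAO libraries and 178, 142 and 187 in controls (0.79, SE 0.17, adjusted p = 0.0228), and the groups do not overlap in either. Atp5g1, Atp5g2 and Atp5g3, whose products give the same mature proton-carrying c subunit, changed by 0.56, 0.33 and 0.56 without a call (adjusted p of 0.0793, 0.256 and 0.0774).

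**Figure D4:**
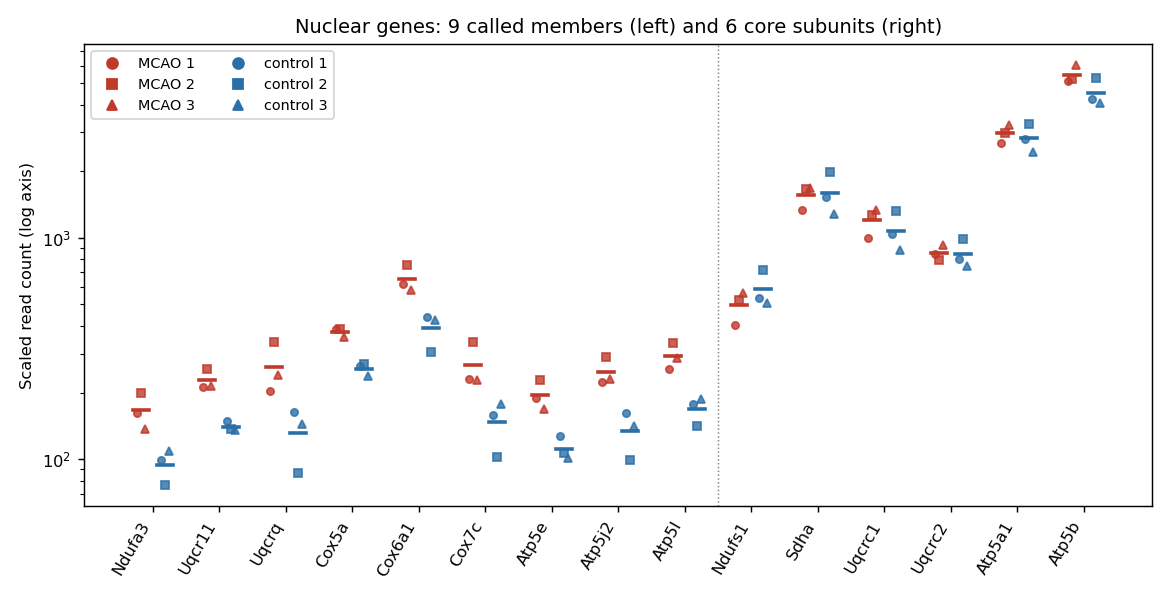
Scaled read counts, on a log axis, of the 9 called nuclear members (left of the dotted line) and 6 core subunits chosen after their values were seen (right), in MCAO (red) and control (blue) libraries, with group means as short lines. The 9 called members do not overlap between groups; in the 6 others, with log2 changes of -0.24 to 0.28, the groups do.

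A comparison of both genomes within each complex used the summed scaled reads of the mitochondrial genes over those of the nuclear subunits. In complex I the ratio was 2.57, 1.98 and 1.07 in MCAO libraries and 0.751, 0.756 and 0.762 in controls. In complex III it was 2.09, 1.76 and 0.880 in MCAO libraries and 0.552, 0.536 and 0.629 in controls. Every MCAO library lay above every control in both complexes. In complex IV the ratio was 5.09, 4.44 and 2.62 in MCAO libraries and 3.04, 2.96 and 2.38 in controls, and MCAO 3 lay below control 1 and control 2. In complex V it was 0.380, 0.259 and 0.172 in MCAO libraries and 0.161, 0.0899 and 0.0917 in controls, with MCAO 3 just above control 1, the library almost without Gm10925 reads. With Gm10925 added to the mitochondrial sum, a setting chosen after seeing the data, the complex V ratio was 0.647, 0.469 and 0.292 in MCAO libraries and 0.161, 0.161 and 0.169 in controls, and the groups lie well apart. The complex I ratio with Gm10222 added was 2.59, 2.01 and 1.08 in MCAO libraries and 0.751, 0.760 and 0.765 in controls. MCAO 3 had the lowest ratio of the MCAO libraries in all 4, and these ratios were not tested. The mitochondrial genes were 1.55, 1.65, 1.22 and 1.51 at their median in complexes I, III, IV and V, and the nuclear subunits 0.40, 0.50, 0.61 and 0.42.

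Gene length went with the change. Among the 85 nuclear members, Spearman's rho of the log2 change with gene span, across genes, was -0.44, against -0.35 among the 12268 other tested genes with a span in the reference; with mean level it was -0.20 among the members. Genes share the 6 libraries and are not independent replicates. The 21 nuclear members within the shortest 10% of genes by span (at most 4195 bases) had 6 calls and a median of 0.56, and the 64 longer ones 3 calls and a median of 0.35. Among the 1227 other genes within the shortest 10%, 66 were called higher and the median was 0.31. Over all genes tested, 2.3% were called higher. These splits were chosen after the values were seen. The nuclear members stood at median differences from the control mean of 0.32, 0.59 and 0.36 in MCAO libraries and 0.08, -0.17 and 0.08 in controls, and the other short genes at 0.26, 0.46 and 0.26 in MCAO libraries and 0.05, -0.10 and 0.07 in controls. MCAO 2 is the highest and control 2 the lowest library in both sets, and these are the shallowest of their groups. With the trend of the values on span taken out of each library, 8 of 15 mitochondrial genes and 1 of 85 nuclear members (Atp5j2) were called. In that setting 336 of 12549 genes were called in either direction. The medians were 0.88 over the 13 mitochondrial mRNAs and 0.24 over the nuclear members.

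**Figure D5:**
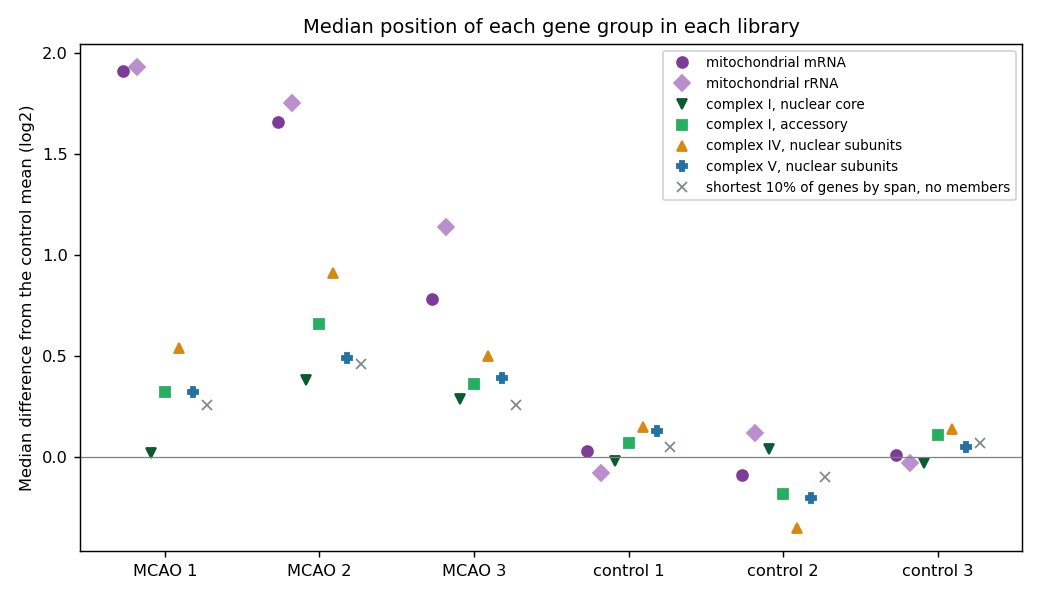
Median log2 difference from the control mean of gene groups in each library, with MCAO libraries on the left; each mark is the median over the genes of 1 group. Mitochondrial mRNAs stand at 1.91, 1.66 and 0.78 in MCAO 1, 2 and 3, while the 12 nuclear genes of complex IV stand at 0.54, 0.91 and 0.50 and the shortest 10% of other genes at 0.26, 0.46 and 0.26.

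The genes that build, maintain and regulate the chain but fall outside the symbols above were read from lists written from general knowledge, beside 2.3% of all genes tested called higher and 0.789% lower. With so few calls a list, nothing is read from their shares. Of 37 tested assembly factors 2 were called higher and 0 lower (median 0.17): Cox14 (0.77, SE 0.19, adjusted p = 0.0444), an assembly factor of complex IV, and Uqcc2 (0.82, SE 0.18, adjusted p = 0.0276), a factor of complex III. Of 28 genes of mitochondrial DNA and RNA maintenance 0 were called (2 at an unadjusted p under 0.05; median -0.02), among them Tfam, which packages mitochondrial DNA (-0.07), and the polymerase genes Polg (-0.01) and Polrmt (-0.00). Of 16 tested biogenesis regulators 0 were called higher and 1 lower, Esrrg, a nuclear receptor that drives respiratory genes (-0.93, SE 0.23, adjusted p = 0.046). Ppargc1a, which encodes the coactivator PGC-1 alpha, stood at 102, 77.8 and 124 scaled reads in MCAO libraries and 146, 168 and 169 in controls, not called (-0.69, SE 0.20, adjusted p = 0.0786). A mixed list held uncouplers, carriers and genes of alternative electron entry and ubiquinone synthesis, among others. Of its 25 tested genes 1 rose, Ucp2, an inner membrane carrier (0.84, SE 0.16, adjusted p = 0.0107), at 219, 233 and 256 in MCAO libraries and 142, 121 and 133 in controls.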

How the data were processed

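PolyA RNA from RiboTag precipitates of 6 mice was sequenced, with 3 MCAO and 3 control animals. The deposited values are a normalised signal, which the values themselves show to be the authors' read counts scaled by a factor of each library, with anything under 1 listed as 1. The submitters' processing notes name mm10, CASAVA 1.8, HISAT2, Partek 6.6, R 3.3.1 and DESeq2 without role or order. The sources used here do not state how reads were counted, on which strand, how genes were filtered or how technical replicates were joined. Values above 1 divided by the step of their column were whole reads, within 0.1 read, for 99.95% of them in control 1 and 100% elsewhere. The step of 1 read lies above the floor of 1 in MCAO 2 (3.11), control 2 (1.77) and control 3 (1.51). It lies below that floor in MCAO 1 (0.588), MCAO 3 (0.666) and control 1 (0.288).

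The main test was limma 3.58.1 in R 4.3.3 (two-sided, empirical Bayes with an intensity trend) on log2(scaled read + 1), which understates the change of low genes. It covered 12549 genes whose mean was at least 10, with Benjamini-Hochberg adjustment, and calls are at an adjusted p under 0.05. Alternatives included edgeR 4.0.16 and DESeq2 1.42.0 on recovered reads. The fits were tested on simulated data. Named genes are the mitochondrial members, every called member, the 2 most abundant and, among those with a mean of at least 50, the 2 most changed members of each nuclear group, the Sdh genes, Cycs and listed paralogs. Not every gene this rule names is reported here. The members and lists were chosen with earlier results of these data known. Gene positions and promoters are from RefSeq, GRCm38.p6. Intervals and floors (3 reads) cover counting error only. The labels give no batch.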

Additional observations from a re-analysis of the deposited data

How the results depend on the processing

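Calls of mitochondrial genes numbered 12 of 15 in the limma fit, 10 to 15 with 1 library left out, 2 with no intensity trend, 8 with the span trend removed, 15 by edgeR and 12 by DESeq2. Calls of nuclear members numbered 9 of 85, 0 to 4 with 1 library left out, 0 with no intensity trend, 1 with the span trend removed, 18 with library weights, 15 by DESeq2 and 1 with both shallowest libraries left out. Members called lower numbered 0 in each of these settings. The median log2 change with the span trend removed was 0.88 over the mitochondrial mRNAs and 0.24 over the nuclear members, which was 0.25 with both shallowest libraries left out. Genes called in all numbered 387, 148 to 306 with 1 library left out, 157 with no intensity trend and 1002 with library weights. They numbered 336 with the span trend removed, 520 by edgeR, 549 by DESeq2 and 567 with both shallowest libraries left out. The cause of these differences was not tested. Both shallowest libraries were left out, and Gm10925 and Gm10222 added to mt-Atp6 and mt-Nd4l, in settings chosen after the data were seen.

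Some uncalled members near 0 changed sign. Ndufa10 (-0.01) was at 0.05 with quantile normalisation, 0.02 with equal totals, 0.06 with library weights, 0.01 by edgeR and 0.13 without both shallowest libraries. Atp5sl (0.03) was at -0.00 with quantile normalisation, -0.18 with the span trend removed, -0.10 with weights, -0.01 by edgeR and -0.27 without both shallowest. Sdha (-0.02) was at 0.02 with equal totals, 0.05 with weights and 0.10 without both shallowest; Ndufaf7 (-0.14) was at 0.10 with weights, 0.03 by edgeR and 0.18 without both shallowest, and Ndufa9 (-0.08) at 0.06 without both. With the span trend removed Uqcrc2 was at -0.00 and Atp5a1 at -0.08. With 1 library left out, Ndufa10 ranged over -0.10 to 0.08, Atp5sl -0.21 to 0.18, Ndufaf7 -0.31 to 0.13, Sdha -0.17 to 0.15, Uqcrc2 -0.06 to 0.14 and Atp5a1 -0.02 to 0.18.

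No paired analysis was possible because the labels give no replicate number shared between the groups.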
